A study of Homo sapiens with 54 samples.

Results

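Cells with transcripts of mast cells, basophils or eosinophils were examined in the single-cell RNA libraries of a study that made macrophages from H1, an established human embryonic stem cell line, on a 3D porous microscaffold. The study compared those cultures with 2D differentiation, and its labels give the cell line H1 and the cell type macrophage to every RNA sample. A cell was selected when unique molecular identifiers (UMIs) of HDC, CPA3 and CLC summed to at least 8, with under 10 UMIs of the megakaryocyte genes PPBP, GP9, CLEC1B and TREML1 and under 5 of the macrophage genes CD14, CD163, C1QA, C1QB and C1QC. Of 26455 cells past the filters, 286 met this rule, in 3 libraries of 3D PMS iMac cells taken at day 7, day 9 and day 12, with 1 library per day. Bulk RNA, which the rule did not use, came from 32 libraries in 11 groups. These groups were 2D-iMac at day 12 and 3D-iMac at day 12 (4 libraries each), 3D-iMac at days 16, 19 and 23 without and with the label FBS (3 each), and 3D-iMac labelled SP6A, SP14 or Ecoli (2 each, with no day given in the labels). All groups share the line H1, which stands unmodified in the labels, and the sources used here do not say what SP6A and SP14 stand for. Nothing in the labels says whether replicate libraries came from separate cultures, so p-values measure the spread between these libraries, which may be technical.

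Mast cells, basophils and eosinophils are granulocytes that store ready-made mediators in cytoplasmic granules and release them on activation. Eosinophil granules hold the major basic proteins encoded by PRG2 and PRG3, the eosinophil peroxidase EPX and the ribonucleases RNASE2 and RNASE3, while CLC encodes galectin-10, the protein of Charcot-Leyden crystals, which basophils make as well. Histamine is made from histidine by the decarboxylase HDC in mast cells and basophils, mast cells add carboxypeptidase CPA3, tryptases and chymase, and both carry the high-affinity IgE receptor. GATA2, GATA1 and C/EBP factors are known to act in the branching of these lineages from a shared progenitor.

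The promoters of 4 genes are printed because these genes mark both ends of the variation described further on: CLC was carried by nearly every selected cell at day 12, PRG3 lay at the eosinophil end, and HDC and CPA3 lay at the histamine end. The sequences are those of RefSeq on GRCh38.p14, from 250 bases before to 50 bases after the annotated start, each read 5′ to 3′ on the gene's own strand. Capitals mark the GATA core, searched as GATAA and as its reverse complement TTATC.
CLC, chr19:39737980-39738279, minus strand: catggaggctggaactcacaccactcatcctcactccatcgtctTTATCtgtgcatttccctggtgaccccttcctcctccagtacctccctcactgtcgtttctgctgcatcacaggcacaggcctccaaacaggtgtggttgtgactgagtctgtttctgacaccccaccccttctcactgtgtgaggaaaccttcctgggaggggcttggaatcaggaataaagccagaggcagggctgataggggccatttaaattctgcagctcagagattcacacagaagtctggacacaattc
PRG3, chr11:57381101-57381400, minus strand: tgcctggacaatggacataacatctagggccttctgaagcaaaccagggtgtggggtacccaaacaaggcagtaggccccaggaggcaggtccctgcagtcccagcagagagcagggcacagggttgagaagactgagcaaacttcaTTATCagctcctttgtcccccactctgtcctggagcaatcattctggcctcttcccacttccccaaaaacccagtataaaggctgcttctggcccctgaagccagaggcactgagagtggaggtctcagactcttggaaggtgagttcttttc
HDC, chr15:50265677-50265976, minus strand: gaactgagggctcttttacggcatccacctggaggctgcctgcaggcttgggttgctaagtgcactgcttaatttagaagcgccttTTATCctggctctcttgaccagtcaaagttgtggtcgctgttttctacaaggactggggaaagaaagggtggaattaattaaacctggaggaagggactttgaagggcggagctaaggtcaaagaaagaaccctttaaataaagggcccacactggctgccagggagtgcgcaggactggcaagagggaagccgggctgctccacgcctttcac
CPA3, chr3:148865046-148865345, plus strand: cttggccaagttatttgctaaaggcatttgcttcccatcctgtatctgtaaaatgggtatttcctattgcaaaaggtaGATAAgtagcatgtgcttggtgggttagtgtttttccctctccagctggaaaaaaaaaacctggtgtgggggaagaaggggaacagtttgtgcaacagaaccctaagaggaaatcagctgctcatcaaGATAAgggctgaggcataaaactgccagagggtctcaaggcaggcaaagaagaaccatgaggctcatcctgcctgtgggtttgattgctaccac
CPA3 holds 2 matches on the printed strand, and CLC, PRG3 and HDC hold 1 each on the other strand. Of 35116 promoters of the same length in the table, 22.7% hold at least 1 match. Promoters were looked for in 8 genes of this report (the 4 printed and PRG2, EPX, GATA2 and RNASE2), 6 were found, and 4 of the 6 hold a match, GATA2 and RNASE2 being without. A match is a stretch of letters and not a measured binding site.

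Selected cells were 251 of 7961 cells at day 12, a share of 3.15% (exact binomial 95% interval 2.78 to 3.56). The share was 0.355% at day 7 (24 of 6767 cells, 0.227 to 0.527) and 0.0938% at day 9 (11 of 11727 cells, 0.0468 to 0.168). With 1 library per day no test between days can be made, and the intervals cover counting error only. Selected cells were deeper than their libraries, with a median of 43789, 20180 and 24304 UMIs at days 7, 9 and 12 against 24562, 13262 and 17097 over all cells. When cells with at least 5000 UMIs were thinned to that number (428, 1570 and 365 shallower cells of days 7, 9 and 12 were left out), with the limits lowered to at least 3 rule UMIs, under 3 megakaryocyte and under 2 macrophage UMIs, the share was 0.0947% at day 7, 0.138% at day 9 and 3.09% at day 12, so days 7 and 9 changed places while day 12 was highest both ways.

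At day 12 the label held for eosinophil granule genes that the rule did not read, such as PRG2 and EPX. Mast cell proteases stayed low there. The label was mixed at day 9 and was contradicted at day 7. All 24 cells of day 7 entered through HDC alone, with 8 to 14 UMIs and a median of 9, and none carried a UMI of CPA3 or CLC. They also had 0 UMIs of the leukocyte antigen PTPRC. Their embryonic and fetal globins stood at 10750 CPM (the UMIs of a gene per 1000000 UMIs of the pooled cells) for HBZ and 11030 for HBG2, against 2420 and 2561 CPM in the other cells of that day. The heme enzyme ALAS2 was at 454 against 130 CPM and the erythroid factor KLF1 at 135 against 53.2 CPM. The day 7 cells are therefore called HDC-selected erythroid cells here, and only 5 of the 24 had PRG2 UMIs. Without day 7 the selected cells were 262, or 1.33% of the cells of days 9 and 12, against 1.08% with it.

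At day 9, 8 of the 11 cells reached the minimum through CLC and 3 through HDC alone. Pooled PRG2 was at 17410 CPM (exact Poisson 95% interval 16870 to 17960) and CLC at 1413 CPM (1261 to 1577), with PRG3 at 824 CPM, while EPX had 1 UMI in all 11 cells. The Poisson intervals cover counting error and not the spread between cells, in which PRG2 ranged from 0 to 893 UMIs. At least 8 PRG2 UMIs were found in 7 cells and PTPRC in 6, while HBZ stood at 1502 CPM, against 1877 in the other cells of that day. GATA2 stood at 249.6 CPM in these cells. Day 9 thus held PRG2 and CLC transcripts with EPX near 0, in too few cells for more than these values.

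**Figure D1:**
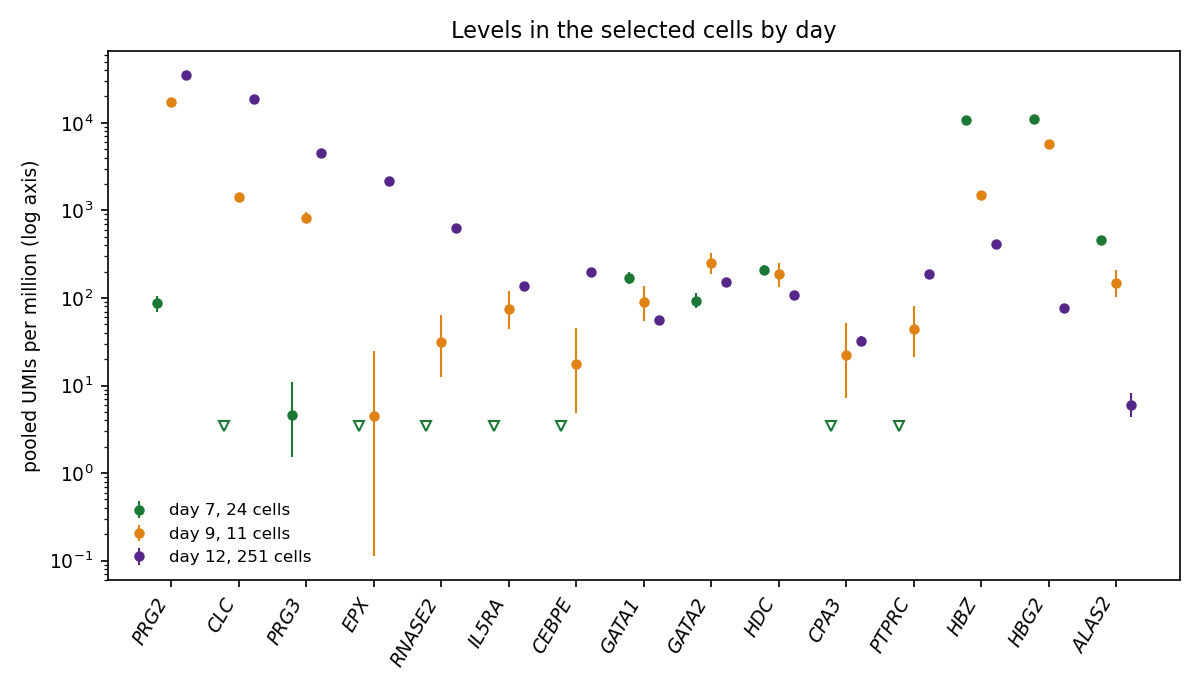
Pooled level of 15 genes in the selected cells of each day, in CPM on a log axis, with exact Poisson 95% intervals as bars; open triangles stand at the upper limit of genes with 0 UMIs. CLC, EPX, IL5RA, CEBPE and PTPRC had 0 UMIs at day 7, where HBZ and HBG2 lay above 10000 CPM, while PRG2 and CLC were at 35180 and 18920 CPM at day 12.

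Day 12 cells carried the label's markers, of which only PRG2 lies outside the rule. CLC was found in 250 of 251 cells, with 0 to 1922 UMIs per cell and a median of 390, and 249 cells had at least 8 CLC UMIs. In 200 of those the sum of HDC and CPA3 was under 8. PRG2, which the rule did not read, was found in 248 cells with a median of 701 UMIs and a maximum of 4269. HDC was found in 87 cells and CPA3 in 48, with medians of 0. The rule gene CLC chose nearly all of these cells and every other gene was read in the same cells, so the levels that follow describe them and are not tested. At day 12 29.7% of 31314 genes with a UMI had a higher CPM in the selected cells than in the other cells, and 11.8% reached 50 CPM, which is the background for the counts of list genes below.

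Cells close to the thresholds differed from the rest. At day 12 the 16 cells just inside the minimum, with 8 to 12 UMIs, had a median of 12.5 PRG2 UMIs, and the 34 cells just outside, with 5 to 7, had a median of 4.5. The 197 cells with at least 100 rule UMIs had a median of 885. A further 29 cells reached the minimum and were removed, 26 by the macrophage genes and 4 by the megakaryocyte genes, with 1 cell over both limits. Among non-selected cells 107 had at least 20 PRG2 UMIs, of which 84 fell short of the rule's minimum and 52 belonged to the class with at least 8 UMIs of the azurophil granule genes MPO, AZU1, ELANE and PRTN3. Scrublet, a doublet caller, marked 25 of the 251 cells, none of the 11 day 9 cells and 3 of the 24 day 7 cells. The libraries share 17 to 24 barcodes in pairs, 1 of which belongs to a selected cell.

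Possible free RNA was gauged in cells rich in collagen UMIs, where doublets and low expression could not be set apart from it. After thinning to 5000 UMIs, a CLC UMI was seen in 10.6% of 3258 day 12 cells with at least 50 UMIs of COL1A1, COL1A2 and COL3A1 and none of PTPRC, a PRG2 UMI in 24.9%, an EPX UMI in 2.09% and an HDC UMI in 0.184%. The same shares were 98.3%, 98.3%, 72.6% and 27.3% of 234 selected cells (17 shallower cells were left out). Median depths, taken before shallower cells were left out, were 24304 UMIs in the selected cells and 14183 in the collagen cells. Unthinned, CLC was seen in 27.2% of the collagen cells and 99.6% of the selected cells. For COL1A1, the share of thinned cells with a UMI had an exact binomial 95% interval of 43.4 to 56.6% in the selected cells, beside shares of 49.9% in the azurophil class and 36.9% in the macrophage class. The 10 macrophage markers, 5 of which the rule limits, summed to 60.2 CPM in the selected cells against 1862 in the others, and none of the 10 reached 50 CPM.

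All 6 eosinophil granule protein genes were above 50 CPM and above the level in non-selected cells at day 12, which for CLC follows from the rule. PRG2, the major basic protein, was at 35180 CPM (35030 to 35320) against 324.5 in the other cells of that day, and CLC was at 18920 against 72.8. PRG3, the major basic protein homologue, was at 4532 CPM and found in 88.4% of cells with a median of 49 UMIs. EPX, the peroxidase of the granule matrix, was at 2187 CPM in 82.9% of cells, with a median of 22 and a maximum of 280 UMIs. The selected cells held 86.7% of all day 12 EPX UMIs, 85.5% of PRG3 and 81.2% of PRG2, and 91.2% of those of CLC, by which they were chosen. The ribonucleases were spread wider: the selected cells held 21.0% of RNASE2 UMIs and 19.6% of RNASE3 UMIs, with 54.9% of RNASE2 in the macrophage class and 50.5% of RNASE3 in the azurophil class. RNASE2 was at 626 CPM in the selected cells against 139 in the macrophage class, which has 2321 cells, and RNASE3 at 52.5 CPM. RNASE2 and RNASE3 are close paralogs, and the sources used here do not say how the counting divided reads they share.

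**Figure D2:**
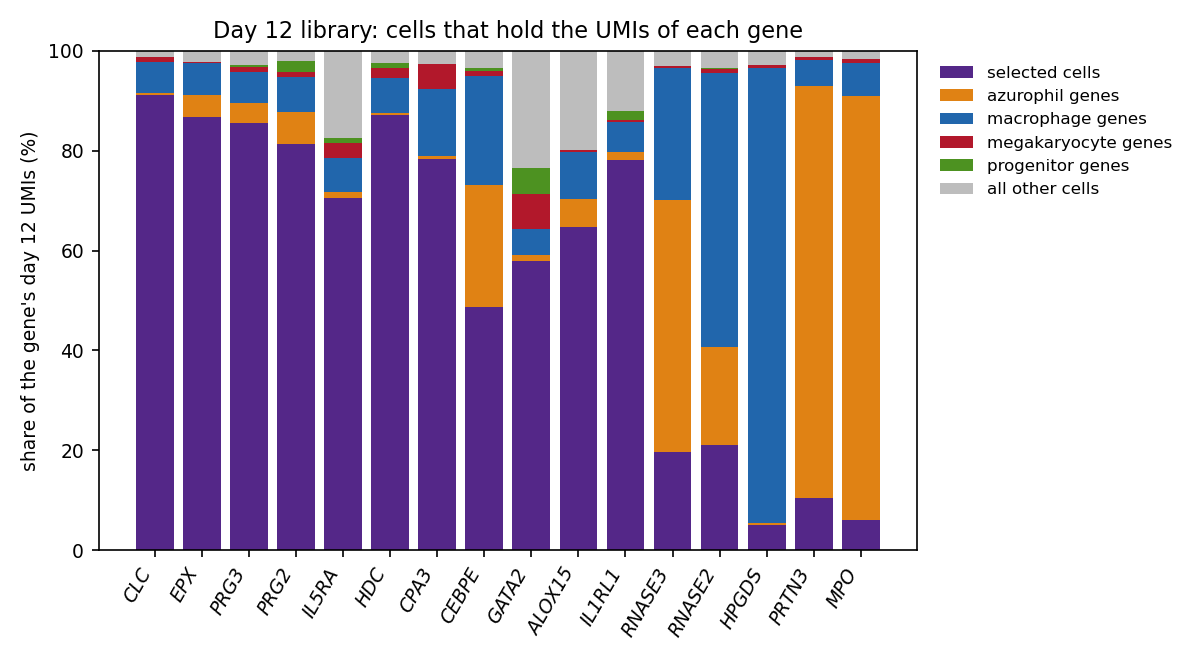
Share of each gene's UMIs in the day 12 library held by the 251 selected cells and by classes of other cells, as stacked bars that sum to 100%. The selected cells hold 91.2% of CLC UMIs but 21.0% of RNASE2 UMIs, and 91.0% of HPGDS UMIs lie in the macrophage class.

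Further eosinophil markers were present at lower counts. The interleukin-5 receptor chain IL5RA, which carries the main eosinophil growth signal, was at 138 CPM in 73.3% of cells against 2.30 CPM outside, and the selected cells held 70.5% of its UMIs. The lipoxygenase ALOX15 was at 92.8 CPM and the receptor P2RY14 at 101 CPM. Surface genes of late stages were lower, with SIGLEC8 at 10.6 CPM, ADGRE1 at 19.3 and the eotaxin receptor CCR3 at 4.10. Of 14 eosinophil markers, 10 reached 50 CPM and all 14 were above the other cells of day 12, though SMPD3 by 0.303 against 0.297 CPM.

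Of the 9 mast cell proteases, 5 had 0 UMIs in the selected cells of day 12 and none reached 50 CPM. TPSAB1 was at 0.303 CPM and TPSB2 at 1.21 CPM, both tryptases whose reads can be shared between close paralogs, while TPSD1, TPSG1 and the chymase CMA1 had 0 UMIs in 6591650 UMIs, which allows up to 0.560 CPM (exact Poisson). The receptors KIT, on which mast cells depend, and MRGPRX2 were at 2.73 and 0 CPM. CPA3 was at 32.2 CPM in 19.1% of cells. Of 13 mast cell markers 3 reached 50 CPM, namely the prostaglandin D2 synthase HPGDS (81.0 CPM), the vesicular monoamine transporter SLC18A2 (63.1) and the interleukin-33 receptor IL1RL1 (52.5). HPGDS was higher in the macrophage class at 125 CPM, whereas SLC18A2 and IL1RL1 were at 1.66 and 0.347 there.

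In histamine handling, HDC was at 109 CPM (101 to 117) in 34.7% of cells against 0.643 in the other cells. The selected cells held 87.1% of its UMIs. Both values follow in part from the rule, which reads HDC. SLC18A2, which loads histamine into granules, followed at 63.1 CPM. The histamine-degrading HNMT was at 12.4 CPM against 89.9 outside. The H4 receptor HRH4 was at 43.7 against 1.40 CPM. In the IgE receptor list, the binding chain FCER1A had 0 UMIs and the beta chain MS4A2 was at 2.73 CPM, with the shared gamma chain FCER1G at 185 CPM against 504 in the other cells. Of those 14 genes 8 reached 50 CPM and 5 were above the other cells, among them SYK, BTK and PLCG2, which act below several receptors. Basophil markers reached 50 CPM in 7 of 11 genes, a count that includes the rule genes HDC and CLC, and the others included MS4A3 at 179 CPM, CD69 at 217 and IL3RA at 68.6, while ENPP3 was at 1.97.

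Transcription factors of several granulocyte branches were found in the pooled cells, though not evenly: over 207 thinned cells Spearman's rho of GATA2 with CEBPE was -0.479. GATA2 was at 154 CPM in 52.2% of the cells against 4.46 in the others, and GATA1 at 56.6 CPM in 61.7% against 10.6. CEBPE, a factor of late granule gene expression, was at 198 CPM in 59.4% of cells, and the azurophil class had 70.6 CPM. IKZF2 was at 313 CPM against 13.8 in the other cells and 37.8 in the azurophil class. IKZF1 was at 360 CPM against 76.9, and LMO4 at 269 against 79.7. IRF8, a factor of the monocyte branch, was at 3.19 CPM against 54.4, and CEBPA at 12.4 against 16.4. Over the list of 25 factors 16 reached 50 CPM and 14 were above the other cells. The factors KLF1 and TAL1, known from the erythroid branch, were at 1.21 and 4.55 CPM at day 12 and at 135 and 87.7 CPM in the HDC-selected erythroid cells of day 7.

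Of 16 cytokine and growth factor receptors, 11 were above the other cells at day 12 and 5 reached 50 CPM. These were IL5RA, the beta chain CSF2RB that signals for interleukin-3, interleukin-5 and GM-CSF (181 CPM against 15.8), IL18R1 (97.9 against 10.1), IL3RA (68.6 against 40.6) and IL1RL1. Among mediators, IL4 was at 15.2 CPM in 11.9% of cells and IL13 at 5.16 CPM in 4.78%, against 0.109 and 0.0970 CPM outside, while IL5 and IL9 had 0 UMIs. The chemokines CCL3, CCL4 and CXCL8 were at 87.7, 71.9 and 209 CPM, below the macrophage class at 1657, 1394 and 1352. In eicosanoid synthesis 8 of 11 genes were above the other cells. LTC4S, which makes leukotriene C4, was at 145 CPM against 10.4 outside and 10.7 in the macrophage class, and PTGS2 was at 10.8 CPM against 60.9. Serglycin, the granule proteoglycan SRGN, was at 3174 CPM in 96.8% of cells against 641 outside and 4766 in the azurophil class.

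The cells also carried azurophil granule transcripts, unevenly. MPO was at 1006 CPM in 63.3% and PRTN3 at 1841 CPM in 69.3% of selected cells, against 10200 and 10360 CPM in the azurophil class, and ELANE had 0 UMIs. In the macrophage class these genes were at 94.8 and 78.9 CPM. After thinning to 5000 UMIs an MPO UMI was seen in 42.7% of the selected cells against 11.8% of the collagen cells, and a PRTN3 UMI in 56.0% against 10.1%. The median selected cell had 1 MPO UMI and the highest had 542, so few cells carried much of the pooled level. The progenitor factor MYB was at 147.5 CPM in 72.9% of cells against 9.36 outside and 129 in the azurophil class, and CD34 was at 32.3 CPM in 19.9%. Cell division genes were present: 16 of 18 reached 50 CPM and 16 were above the other cells, all but MKI67 (126 CPM in 53.0% of cells, against 128.5) and TOP2A (180 against 231). The ribonucleotide reductase RRM2 was at 150 against 62.4 CPM and PCNA at 130 against 57.2. The 12 cells of day 12 with CD34, MYB and PTPRC that belonged to no other class had PRG2 at 13390 CPM, PRG3 at 375 and GATA2 at 202, with CLC at 11.0.

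Among genes at 50 CPM or more in the selected cells and seen in at least 10% of those of day 12, the 20 with the highest ratio to the other cells, pooled over the 3 days, began with CLC, EPX, PRG3, TRDC and PRG2, at ratios of 682, 405.5, 333, 317.5 and 229 among 3681 eligible genes. TRDC and TRGC2 (ratio 29.6), the constant segments of T cell receptor delta and gamma chains, stood beside CD3E and TRAC at 0.455 and 0.152 CPM at day 12. Of the 6 lymphoid markers, which include CD3E and TRAC, 3 were above the other cells of day 12 and 1 reached 50 CPM. Their sum was 76.0 against 69.1 CPM. CDK15, RHEX, IL5RA, CEBPE, PRSS57, CST7 and HDC followed with ratios of 104 to 38.9. CLC and HDC are rule genes, so their ratios follow in part from the selection. All these ratios pool days whose shares of selected cells differ and include the day 7 cells. At day 12 alone HDC was at 109 against 0.643 CPM and PRG2 at 35180 against 324.5, so HDC would rank above PRG2 there. PRSS57, a serine protease of granulocyte granules, was at 381 CPM at day 12, and CST7, an inhibitor of lysosomal cathepsins, at 487 CPM. The remaining genes were AC244502.1, PTH2R, ACSM3, SPNS3, ARHGAP15, IKZF2 and LTC4S. At day 7 CLC, EPX, TRDC, CDK15, RHEX, IL5RA, CEBPE, CST7, AC244502.1 and TRGC2 had 0 UMIs in the HDC-selected erythroid cells.

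Selected cells at day 12 varied along the range of HDC. In thinned cells GATA2 and CPA3 rose with HDC, while RNASE2, PRTN3 and CEBPE fell. EPX fell less closely with HDC (Spearman's rho -0.336, against -0.518 for RNASE2). The 207 cells with at least 10000 UMIs were thinned to that number (44 shallower cells were left out), after which 150 had no HDC UMI, 10 had 1 and 47 had 2 or more. These limits were chosen after the values were seen, and the cells share a library, so pooled levels of both ends are given without a test. Median depths before thinning were 29749 UMIs for the cells without HDC and 23558 for those with 2 or more. GATA2 was at 424 CPM (390 to 461) in cells with 2 or more HDC UMIs and at 62.3 CPM (55.4 to 69.8) in cells without. CPA3, which the rule reads as it does HDC, was at 108 against 1.48 CPM. HPGDS was at 216 against 27.7 CPM, SLC18A2 at 144 against 35.5, and IL1RL1 at 126 against 27.5. The prostaglandin-degrading HPGD was at 139 against 10.6 CPM. Interleukin-4 and interleukin-13 lay on this side, IL4 at 33.2 against 6.34 CPM and IL13 at 19.6 CPM against 0 UMIs. So did LIF (65.6 against 5.91), IL9R (30.9 against 1.69), SIGLEC6 (33.2 against 1.69), CSF2RB (359 against 110), MS4A3 (376 against 112), ALOX5AP (520 against 106), FCER1G (386 against 106) and LAT (70.8 against 7.18).

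Most eosinophil granule and azurophil genes lay on the other side, but not all eosinophil markers did: P2RY14 was at 174 CPM in cells with 2 or more HDC UMIs against 78.6 in cells without, ADGRE1 at 28.6 against 14.6 and CCR3 at 4.52 against 0.211. Not all azurophil markers did either. MS4A3, which is also in the azurophil list, was at 376 against 112 CPM. CTSG was at 3.77 against 2.96 CPM and CFD at 37.7 against 43.1. EPX was at 708 CPM in cells with 2 or more HDC UMIs and at 2677 CPM in cells without, PRG3 at 1094 against 5690. RNASE2 was at 54.3 against 792 CPM, RNASE3 at 0.754 against 66.1 and ALOX15 at 0.754 against 122. CEBPE was at 22.6 (15.2 to 32.3) against 256 CPM (241 to 270). MPO was at 30.1 against 1269 CPM and PRTN3 at 49.7 against 2383. Some genes differed little between the ends: IL5RA was at 115 against 143 CPM, GATA1 at 67.8 against 56.2, and the rule gene CLC at 22330 against 17100, with PRG2 at 27310 against 38170. The globin HBZ was at 136 against 535 CPM and COL1A1 at 1047 against 1127, and their part in these levels was not tested. Removing cells that Scrublet called (3 of 47 and 20 of 150) left GATA2 at 431 against 60.6 CPM and EPX at 733 against 2955.

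**Figure D3:**
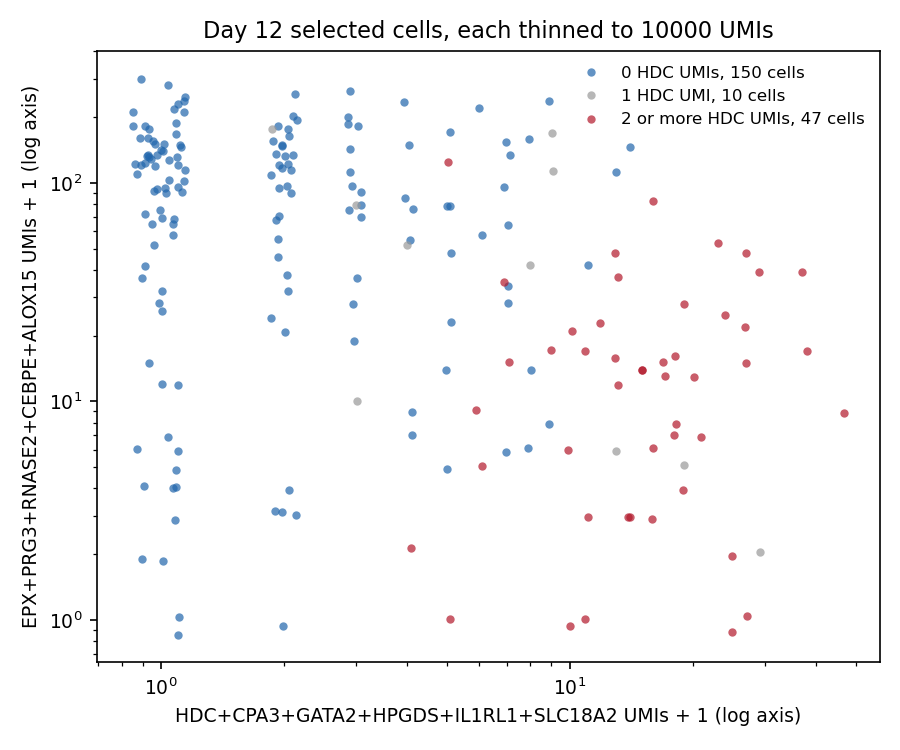
Each point is 1 of 207 day 12 selected cells thinned to 10000 UMIs, with UMIs of HDC, CPA3, GATA2, HPGDS, IL1RL1 and SLC18A2 on the horizontal and of EPX, PRG3, RNASE2, CEBPE and ALOX15 on the vertical log axis, 1 added to both and a small random shift for overlap. The 47 cells with 2 or more HDC UMIs lie to the right and mostly below the 150 cells without, and cells between the ends are present; the colour uses HDC, which is also part of the horizontal sum.

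**Figure D4:**
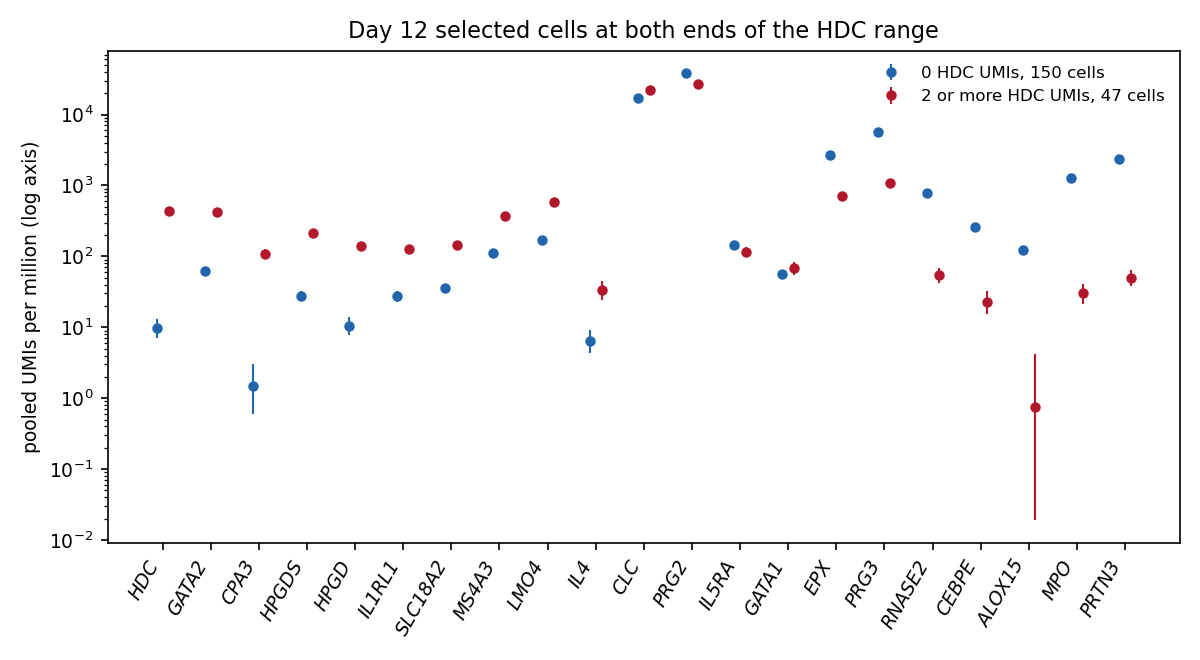
Pooled level of 21 genes at both ends of the HDC range at day 12, in CPM on a log axis with exact Poisson 95% intervals. GATA2 and CPA3 are higher in the 47 cells with HDC (424 and 108 CPM) than in the 150 without (62.3 and 1.48), EPX, CEBPE and MPO are lower, and IL5RA and GATA1 are similar. HDC, CPA3 and CLC are rule genes.

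Correlations over the 207 thinned cells of this library describe the same pattern per cell. Spearman's rho of HDC was 0.665 with GATA2, 0.618 with CPA3, 0.567 with HPGDS and 0.435 with CSF2RB, and -0.518 with RNASE2, -0.499 with CEBPE and -0.336 with EPX. HDC and CPA3 are both rule genes, so their coefficient is drawn from values that chose the cells. With unthinned CPM the values were 0.763 for GATA2 and -0.604 for RNASE2. EPX was most like RNASE2 (0.761), CALR (0.661), PRG3 (0.649) and DACH1 (0.616), where the likeness was ranked over 3671 genes seen in at least 20% of these cells. CALR, P4HB (0.602) and HSPA5 (0.574) encode chaperones of the endoplasmic reticulum. CLC was most like the actin-binding TMSB4X (0.681), then PRG2 (0.581), GMFG and CYBA, and was at 0.250 with HDC and 0.284 with EPX. MKI67 was at 0.0157 with HDC and 0.115 with EPX. Cells of 1 library share depth differences and can share free RNA, so these coefficients carry no p.

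Bulk libraries of day 12 allowed a test that did not use the selected cells. With limma on log2(TPM + 1), 37.8% of 13131 genes passed the adjusted p threshold of 0.05 between 3D-iMac and 2D-iMac, 13% higher and 24.7% lower in 3D, and the median change of all genes was -0.21. Median-ratio scaling of the libraries moved that median to -0.04 and the share of calls that were higher from 34.5% to 48.5%. Of the 6 eosinophil granule genes 3 were lower in 3D, none was higher and 3 did not pass, with a median log2 change of -3.41. These 6 genes were listed with results of these data known, so the count describes them. In bulk RNA, fewer cells of a type, less RNA per cell and a different mix of collected cells cannot be told apart. The day 12 single-cell library, also of 3D culture, held 285385 UMIs of PRG2 and 136697 of CLC among 171511754 UMIs. Whether the bulk and single-cell libraries sampled the same mix of cells was not tested. Levels here are TPM, which are scaled per length.

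PRG2 was at 273, 394, 362 and 479.9 TPM in the 2D libraries and at 2.21, 2.99, 0 and 132 TPM in the 3D libraries. Each 3D library lay below each 2D library, but replicate 4 of 3D stood far above the other 3. PRG2 fell by 5.85 on the log2(TPM + 1) scale (SE 1.29, limma adjusted p = 0.0084). EPX was at 7.31, 9.59, 10.6 and 16.04 TPM in 2D, and it was listed at 0 in 3 of the 3D libraries and at 6.37 TPM in replicate 4. It fell by 2.80 (SE 0.64, limma adjusted p = 0.0101), and the groups did not overlap. How many of all genes had no overlap was not counted, here or below. PRG3 was at 14.7 to 89.1 TPM in 2D, listed at 0 in 3 of the 3D libraries and at 41.3 TPM in replicate 4, so the groups overlapped. Its log2 change was -4.02 (SE 1.22, limma adjusted p = 0.0312), and that call was lost in 6 of the 8 fits that left out 1 library and in the fit with no filter on low values.

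CLC was at 72.3, 88.6, 87.7 and 117 TPM in 2D, and in 3D it was listed at 0 in 3 libraries and stood at 228 TPM in replicate 4, above every 2D library. Its log2 change of -4.55 (SE 1.65) did not pass (limma adjusted p = 0.0593), and without replicate 4 of 3D it was -6.51 with a limma adjusted p of 4.55e-05. The same 3D replicate 4 had C1QC, a complement gene of macrophages, at 236 TPM, where the other 3D libraries had 1725 to 2069. The rule's other macrophage genes differed less. In replicate 4 C1QA was at 646 TPM and C1QB at 759, against 777 to 870 and 905 to 986 in the other 3D libraries. CD14 at 1046 TPM and CD163 at 179 lay within the range of those libraries. The part of this replicate in these results was not tested. HDC was at 0.81 to 2.21 TPM in 2D and at 0.22, 0, 0 and 3.61 TPM in 3D, with a log2 change of -0.73 (limma adjusted p = 0.272). RNASE2 was at 193 ± 18.0 TPM in 2D and 244 ± 13.4 in 3D (SD, n = 4 each) and did not pass (log2 change 0.34, limma adjusted p = 0.103). It passed as higher after median-ratio scaling of the libraries, with 0.55 and an adjusted p of 0.018. CPA3, MS4A2, FCER1A and IL5RA were under a mean of 1 TPM and were not tested.

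Of 22 transcription factors tested, 13 were lower in 3D, 1 was higher and 8 did not pass. Among all genes tested 24.7% were lower and 13% higher. GATA1 was at 14.3 to 30.5 TPM in 2D and 0 to 2.25 TPM in 3D and fell by 3.69 (SE 0.42, limma adjusted p = 0.000508). CEBPE was at 26.4 ± 4.10 TPM in 2D and 4.05 ± 1.75 TPM in 3D (SD, n = 4 each) and fell by 2.48 (SE 0.25, limma adjusted p = 0.000326), with no overlap between groups. GATA2 was at 9.89, 5.68, 0.35 and 14.1 TPM in 2D and 0.22, 0, 0.05 and 1.74 TPM in 3D, so the groups overlapped. It fell by 2.18 (SE 0.72, limma adjusted p = 0.0423), yet that call was lost in 6 of the 8 fits without 1 library, with no filter and with a pseudocount of 0.1. The factor GFI1B was at 8.68 ± 6.52 TPM in 2D and 0.207 ± 0.144 TPM in 3D (SD, n = 4 each; limma adjusted p = 0.00101). ID2 was the factor that was higher, by 1.46 on the log2 scale.

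Other genes of these cells went both ways. LTC4S was at 143 ± 25.9 TPM in 2D and 18.6 ± 2.20 TPM in 3D (SD, n = 4 each). It fell by 2.87 on the log2 scale (limma adjusted p = 5.02e-05). MS4A3 was lower (log2 change -2.08, limma adjusted p = 0.012), with 2D libraries at 4.92 to 14.4 TPM and 3D libraries at 0.42 to 5.27. HPGDS was at 11.8 ± 1.77 TPM in 2D and 33.1 ± 9.45 TPM in 3D (SD, n = 4 each) and rose by 1.39 (limma adjusted p = 0.00203), and SRGN and FCER1G were higher by 1.03 and 1.61. HPGDS and FCER1G were above the selected cells in the macrophage class at day 12, and 6 of 10 macrophage markers were higher in 3D with none lower. Whether these values are linked was not tested. The azurophil markers tested were all lower in 3D, 7 of 7, and the megakaryocyte markers 8 of 8, so lower levels were also found in lists of other blood cells. Of the 11 basophil markers 6 were tested, 2 were lower and 1 was higher, and of the 13 mast cell markers 2 were tested and 1 (HPGDS) was higher. All list counts of this paragraph stand beside 24.7% lower and 13% higher among all genes tested, and the basophil and mast cell counts are small.

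Across the other bulk groups, which no test here compared, the marker genes were uneven between libraries of days 16 and 19 and present in all libraries of SP6A, SP14 and, apart from CPA3, Ecoli. At day 16 CLC, HDC and CPA3 were at 22.8, 20.9 and 14.7 TPM in replicate 3, while all of them were listed at 0 in replicates 1 and 2, and PRG2 was at 0, 0.52 and 0 TPM. At day 19 CLC was at 639, 5.75 and 5.97 TPM in replicates 1 to 3, and in replicate 1 HDC was at 42.4, CPA3 at 23.8, MS4A2 at 17.4, MS4A3 at 48.6 and PRG2 at 121 TPM. HDC was listed at 0 in the other day 19 libraries without FBS. At day 23 all 3 libraries had CLC, at 58.1, 103 and 60.2 TPM, with HDC at 1.56 to 6.17. CPA3 was at 5.03 TPM in replicate 1 of day 23 and listed at 0 in the others.

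With FBS, CLC was at 5.40, 16.8 and 6.90 TPM at day 16, at 3.18, 210 and 298 at day 19 and at 0, 43.8 and 3.78 at day 23. HDC was at 0, 3.13 and 16.6 TPM at day 19 with FBS. CPA3 was at 0, 8.95 and 17.0 TPM at day 19 with FBS and listed at 0 in all libraries with FBS at days 16 and 23. SP6A and SP14 were even between their libraries: CLC was at 262 and 267 TPM in SP6A and at 135 and 137 in SP14, HDC at 14.9 and 18.1 and at 12.1 and 15.7, and CPA3 at 6.11 and 5.59 and at 3.48 and 3.97. PRG2 was at 3.37 TPM or less in these 4 libraries, and the eotaxin receptor CCR3 was at 7.03 to 7.44 TPM. The Ecoli libraries had CLC at 875 and 877 TPM, HDC at 38.5 and 67.9 and GATA2 at 123 and 86.5 TPM. The granule genes differed between them, with PRG2 at 86.9 and 783, PRG3 at 12.4 and 525, EPX at 2.81 and 84.0 and CPA3 at 26.6 and 0 TPM. Libraries with CPA3 above 1 TPM were day 16 replicate 3, day 19 replicate 1, day 23 replicate 1, replicates 2 and 3 of day 19 with FBS, SP6A, SP14 and 1 Ecoli library, and in them PRG2 ranged from 0 to 121 TPM, while the 2D day 12 libraries had PRG2 at 273 TPM or more with CPA3 at 0.21 TPM or less.

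**Figure D5:**
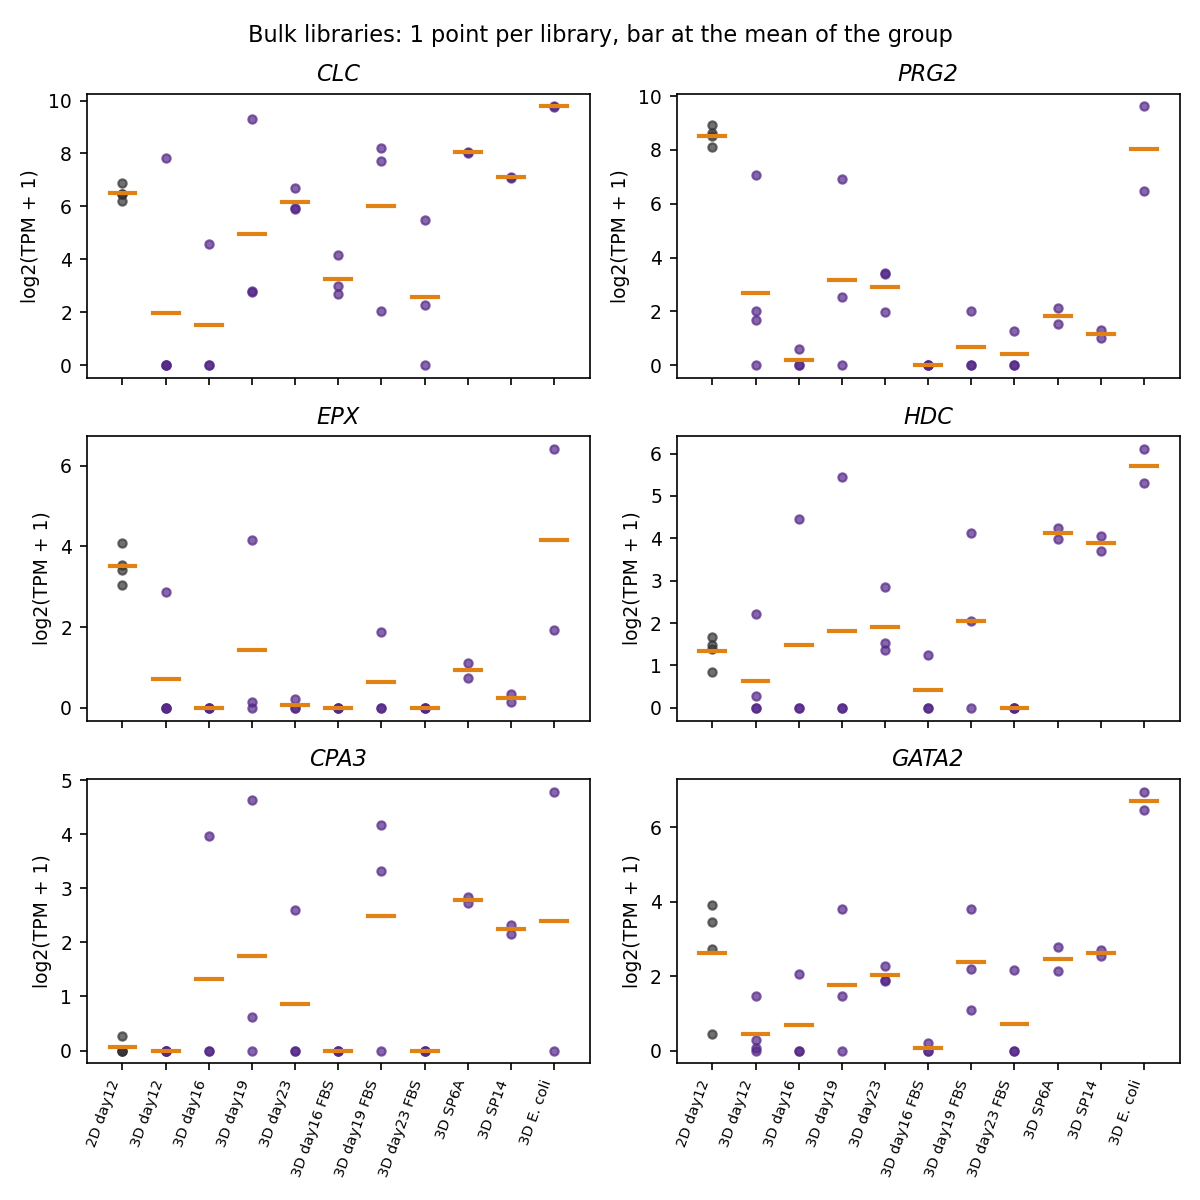
Level of 6 genes in the 32 bulk libraries as log2(TPM + 1), with 1 point per library, grey for 2D and purple for 3D, and a bar at the mean of each group's log2 values. The 2D day 12 libraries lie together for CLC and PRG2, and 3D day 12 replicate 4 stands apart from the other 3. CPA3 is above 1 TPM in day 16 replicate 3, day 19 replicate 1, day 23 replicate 1 and 2 libraries of day 19 with FBS. It is also above 1 TPM in SP6A, SP14 and 1 Ecoli library, and HDC is found in each of these libraries. HDC is found elsewhere too, as in all libraries of 2D day 12 and of day 23 without FBS. The highest HDC (67.9 TPM) and the highest CPA3 (26.6 TPM) are in different Ecoli libraries.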

How the data were processed

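Single-cell values are counts of UMIs per gene and cell, deposited by the authors as 10x matrices of 36601 genes and made with Cell Ranger 7.1.0 (days 7 and 9) and 7.0.0 (day 12), per the file headers. Cells with at least 1000 UMIs, at least 500 genes and under 15% mitochondrial UMIs were kept, which left 182112987, 180335202 and 171511754 UMIs at days 7, 9 and 12. Counts were summed over cells and given as counts per 1000000 UMIs (CPM) with exact Poisson 95% intervals, and shares with exact binomial 95% intervals. Both kinds of interval cover counting error only. Doublets were called with Scrublet in scanpy 1.11.5 (expected rate 0.06) and kept in the main values. Cells outside the rule were put in classes in the order megakaryocyte (at least 10 UMIs of the rule's genes), macrophage (at least 5), azurophil (at least 8) and progenitor.

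Bulk values are TPM deposited by the authors for 58735 genes in 32 libraries prepared by SMART-seq2, per the labels' protocols. The sources used here do not say how TPM was computed, and depth is unknown. They were tested with limma 3.58.1 in R 4.3.3 on log2(TPM + 1), for genes with a mean of at least 1 TPM, with Benjamini-Hochberg adjustment at 0.05. Replicate numbers did not pair the 2D and 3D libraries, whose same-number correlations of deviations were 0.04, 0.02, 0.02 and -0.01. No pair of bulk libraries held identical values.

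The selected cells and all gene lists were chosen with earlier results of these data known. Named genes were the 4 label markers, list genes at 50 CPM or 1 TPM, and the 20 genes with the highest ratio; genes at or near 0 that define a cell type, and others named for contrast, were chosen after their values were seen. The chromatin libraries were not used here. One gene is not reported here.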

Additional observations from a re-analysis of the deposited data

Results flagged for a closer look

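In bulk, 6 values of single 3D-iMac day 12 libraries lay far from the other 3 of their group by Dixon's criterion, among the 21 genes followed and C1QC. Replicate 4 was the highest for CLC at 228 TPM, EPX at 6.37 TPM, HDC at 3.61 TPM and PRG3 at 41.3 TPM. It was the lowest for C1QC at 235.9 TPM. Replicate 2 was the lowest for CSF2RB at 3.35 TPM, where the other 3 lay close together. Over all list genes 25 of 282 pairings of a gene with a group of 4 libraries had such a value. The criterion is set for about 1 in 20 with independent, normally distributed values. These pairings share 8 libraries and some hold values listed at 0, so that rate is no reference for the count.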

How the results depend on the processing

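The share of selected cells depended on the rule's limits. A minimum of 5 UMIs gave 1.14% at day 7, 0.171% at day 9 and 3.58% at day 12, and a minimum of 15 gave 0% at day 7. Thinning gave 0.0947% at day 7. Macrophage genes under 2 UMIs gave 2.44% at day 12, and leaving out day 7, chosen after seeing the data, gave 1.33% over the remaining days. The cause was not tested beyond the rule's own construction. Of 20 levels in the day 12 cells, 17 moved outside their counting interval with the mean of per-cell CPM in place of the pooled level, 11 with Scrublet doublets removed and 8 at a minimum of 15 UMIs; PRG2, for example, was then at 34040, 38080 and 37010 CPM.

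In bulk, leaving out each library gave 1250 to 1601 genes higher and 2762 to 2979 lower in 3D. A replicate block gave 1402 higher and 2708 lower and changed no call of the 21 genes followed; the numbers were not shown to pair the libraries. Among those genes RNASE3 passed without replicate 3 of 3D (log2 change -0.82, limma adjusted p = 0.0377). The adjusted p of PRG3 ranged from 0.0586 to 0.0809 in the 6 fits that lost it and was 0.0669 with no filter, and that of GATA2 ranged from 0.0803 to 0.0996, with 0.0854 with no filter and 0.0526 at a pseudocount of 0.1. Cells of days 7 and 9 are too few for levels of low genes, and bulk depth is unknown.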
